A study of Mus musculus with 6 samples.

Results

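A set of 9 genes of retinoic acid handling was described in Digits in a Dish (DID) cultures: the synthetic enzymes Aldh1a2 and Aldh1a3, the degrading enzymes Cyp26a1 and Cyp26b1, the cytoplasmic binding proteins Crabp1 and Crabp2, and the nuclear receptors Rara, Rarb and Rarg. They were taken by symbol, and all 9 were found among the 32286 genes of the deposited matrices. The cultures were grown from the distal forelimb mesenchyme of wild type CD-1 mouse embryos at E11.5, whose dissected tissue was pooled, dissociated and plated at high density in medium with fetal bovine serum and no other added growth factor. No genotype or treatment differed between groups, which were the culture times Day 2, Day 7 and Day 10, each with 2 independent cultures (replicates A and B) profiled as separate 10x Genomics 3′ single-cell libraries. The comparisons between days ask how transcript levels of this pathway moved as a dish of dissociated limb cells formed cartilage, joint and tendon-like tissue.

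Retinoic acid is made from retinol by way of retinaldehyde, whose oxidation is carried out by the ALDH1A enzymes. CYP26 enzymes oxidize it to products that no longer signal, so that cells which express them act as sinks. CRABP proteins hold retinoic acid in the cytoplasm, and retinoic acid receptors, paired with retinoid X receptors, bind direct repeats of a short DNA hexamer. In the limb bud Cyp26b1 keeps the distal mesenchyme low in retinoic acid, Aldh1a2 is known from the interdigital tissue, Rarg from cartilage condensations, and Rarb and Cyp26a1 are widely used as genes that retinoic acid induces.

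After the limits of the study on cell quality, 72099 of 91215 barcodes were kept, 9448 to 16486 per library. Libraries held 178022112 to 260245417 UMIs in those cells, where a UMI is a counted transcript molecule. The Day 7 libraries had medians of 8062 and 9337 UMIs per cell, with 30.8% and 23.5% of cells under 3000 UMIs (replicates A and B). At Day 10 these were 24197 and 22128, with 7.92% and 10.9%. Replicate B of Day 2 was the shallowest, with a median of 3871 UMIs per cell and 41.4% of its cells under 3000 UMIs, against a median of 18587 and 6.84% in replicate A of the same day. Without that library every call of the 9 genes between Day 2 and a later day held except that of Rarg at Day 7, and other genes were not looked at singly in that refit. Pairs of libraries shared 24 to 67 cell barcodes, at most 0.543% of the smaller library. All 8 fixed markers of distal limb mesenchyme (Prrx1, Twist1, Hoxa13, Hoxd13, Hoxd12, Msx1, Msx2 and Lhx9) had UMIs in every library. Levels are given as CPM, the UMIs of a gene relative to all UMIs of its library, after scaling by trimmed mean of M values (TMM). 3′ libraries count a molecule once whatever its length. Levels of different genes are still set side by side only roughly, and ranks between genes are not drawn.

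Between Day 2 and Day 7, 7 of the 9 genes fell and 2 (Aldh1a3 and Rarg, the latter not on library totals without scaling factors) rose at an adjusted p under 0.05 (edgeR quasi-likelihood test, Benjamini-Hochberg over 18987 genes). The background of that comparison was 34.6% of all tested genes lower and 35.7% higher, with a median log2 fold change of 0.01 over all genes and of -1.32 over the 9. Between Day 7 and Day 10, 3 genes rose, 3 fell and 3 did not pass, against 26.3% of all genes higher and 25.9% lower. Between Day 2 and Day 10, 8 fell and Aldh1a3 rose, against 38.2% lower and 39.0% higher. All 9 genes passed the filter on low counts. These directions are relative to the TMM scaling, whose factors were 1.124 and 1.143 at Day 2 and 0.9273 to 0.9521 later. On library totals without these factors, an alternative chosen after seeing the data, the median of all genes moved to -0.27 at Day 7 and -0.26 at Day 10 against Day 2. The share of called genes that were higher then went from 50.76% to 33.26% and from 50.54% to 36.93%, and among the 9 genes Rarg at Day 7 turned from higher to lower (-0.14, adjusted p = 0.03). In these summed libraries fewer cells that use a gene and less RNA per cell cannot be told apart. Summed marker levels of many cell types also differed between the days, and no test was made of the sums. The 8 distal limb mesenchyme markers summed to 692 to 720 CPM at Day 2, 368 to 387 at Day 7 and 517 to 529 at Day 10. Prrx1 made up most of this sum (428.5, 224.5 and 329.2 CPM on average). Every marker but Msx1 (20.4, 9.85 and 5.66 CPM) had its lowest mean at Day 7, in several cases close to that of Day 10. The summed level of 9 chondrocyte markers ran from 1790.5 to 1934.7 CPM at Day 2, 15751.9 to 16811.3 at Day 7 and 9319.7 to 10215.4 at Day 10. That of 5 joint interzone markers was 540 to 598, 279 to 291 and 252 to 253 CPM, and that of 6 interdigital mesenchyme markers was 205 to 209, 96.3 to 103 and 103 to 105 CPM. The 6 myocyte markers summed to 222 to 280, 17 to 33.9 and 3.25 to 6.04 CPM, with Pax7 at 0 at Day 7, and the 4 erythrocyte markers to 52.5 to 124 CPM at Day 2 and at most 0.027 CPM later, with Hba-x, Hbb-bt and Hbb-y at 0. Over the same 3 days the 5 perichondrium markers summed to 960 to 999, 2556.8 to 2731.5 and 4169.1 to 4770.9 CPM, the 7 osteoblast markers to 33.5 to 37.1, 79.5 to 82.1 and 737 to 979 CPM, and the 5 hypertrophic chondrocyte markers to 64.6 to 69.1, 157 to 167 and 443 to 477 CPM. The 5 contractile mesenchyme markers summed to 3284.2 to 3993.8, 3456.2 to 3694.6 and 5360.5 to 5560.2 CPM, the 6 tenocyte markers to 146 to 153, 130 to 131 and 193 to 212 CPM, and the 6 immune markers to 9.97 to 20.5, 27.3 to 38.9 and 103 to 129 CPM. The 4 markers of dividing cells summed to 706 to 758, 330 to 334 and 243 to 280 CPM. The articular, endothelial, epithelial and neural crest lists were at most at 90.4 CPM in a library, and 11 dissociation response genes at 1213.9 to 1504.0 CPM. A sum weighs its highest genes most, such as Ibsp (644.2 CPM on average at Day 10) among the osteoblast markers. Markers of a list could also move opposite ways. Of the tenocyte markers, Scx was at 117.8, 40.1 and 65.7 CPM over the 3 days and Fmod at 5.76, 52.7 and 81.6 CPM. Of the articular markers, Prg4 was at 1.88, 37.2 and 63.3 CPM and Creb5 at 38.3, 22.7 and 10.2 CPM. The part of these cell types in the changes between libraries was not tested.

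**Figure D1:**
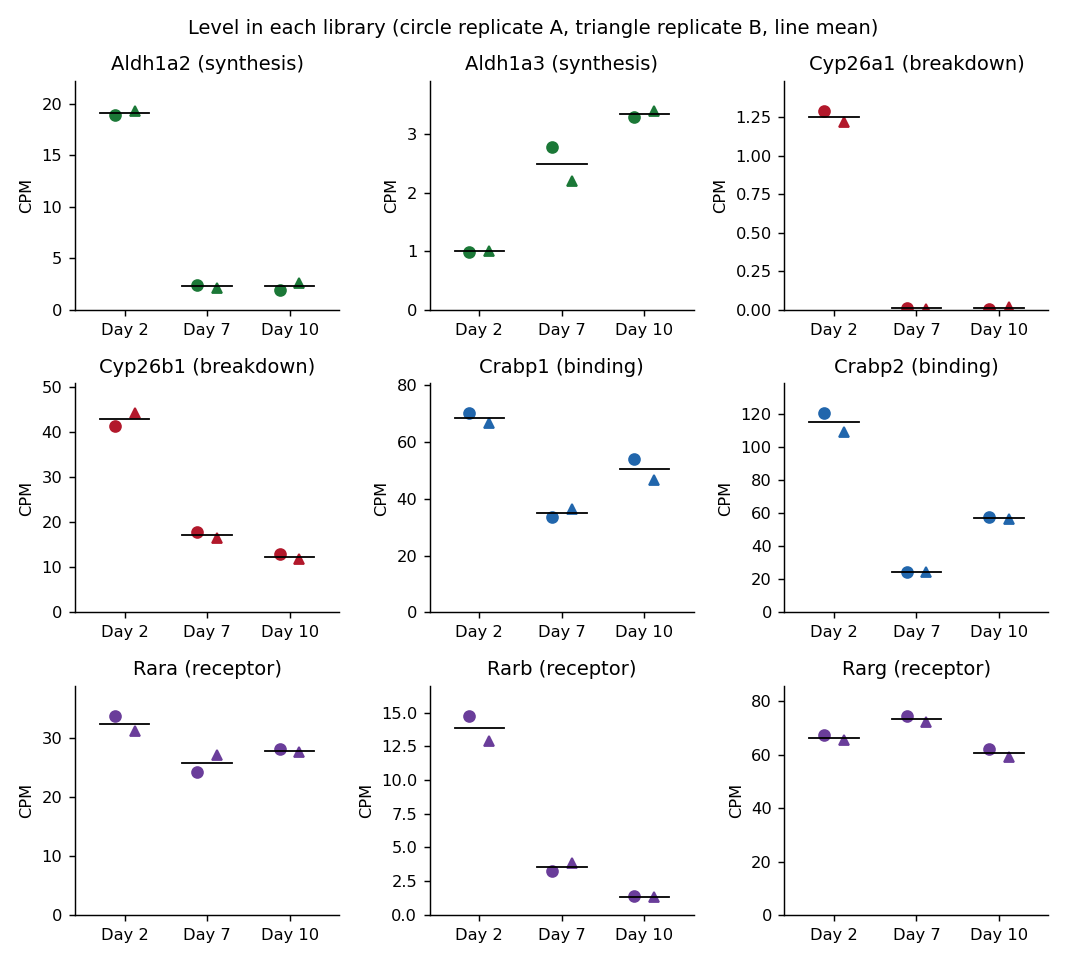
Level of each gene in CPM (y axis, from 0) in each of the 6 libraries by culture day (x axis), with circles for replicate A, triangles for replicate B and a line at the mean of the 2. Aldh1a2, Cyp26a1, Cyp26b1, Crabp1, Crabp2, Rara and Rarb have both Day 2 libraries above all later ones, while both Day 2 libraries of Aldh1a3 lie below all later ones.

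Of the synthetic enzymes, Aldh1a2 fell and Aldh1a3 rose. Aldh1a2 (chr9:71215789-71296243, plus strand, GRCm38), the main retinaldehyde dehydrogenase of the embryo, was at 18.9 and 19.3 CPM at Day 2, 2.42 and 2.15 CPM at Day 7, and 1.94 and 2.62 CPM at Day 10 (replicates A and B). Both Day 2 libraries were far above the other 4, which overlapped. The log2 fold change was -3.06 (SE 0.13, adjusted p = 1.1e-07) from Day 2 to Day 7, and 0.00 (SE 0.13, adjusted p = 0.98) from Day 7 to Day 10. Aldh1a3 (chr7:66390890-66427517, minus strand), a related dehydrogenase known from sensory and epithelial tissue, was low throughout, at 0.995 and 1.01 CPM at Day 2, 2.77 and 2.21 at Day 7, then 3.30 and 3.40 at Day 10. Its libraries did not overlap between days, and it rose by a log2 fold change of 1.31 (SE 0.13, adjusted p = 2.1e-05) to Day 7 and of 1.74 (SE 0.13, adjusted p = 2.3e-06) over the whole course. The later step, 0.43 (SE 0.12, adjusted p = 0.017), did not hold when Day 7 replicate B (0.27, adjusted p = 0.12), Day 10 replicate A (0.45, adjusted p = 0.054) or Day 10 replicate B (0.41, adjusted p = 0.07) was left out, nor with all barcodes (0.23, adjusted p = 0.37).

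Both degrading enzymes fell. Cyp26a1 (chr19:37697798-37701536, plus strand) was seen in 298 and 247 UMIs at Day 2, 3 and 1 at Day 7, then 2 and 4 at Day 10. These are 1.29 and 1.21 CPM at Day 2 and at most 0.018 CPM in a later library, so the transcript was scarce at Day 2 and close to the detection limit afterwards. The pooled Day 2 level was 120 times that of Day 7 (95% interval 46.4 to 440) and 97.6 times that of Day 10 (44.6 to 267), with exact intervals that cover counting error only. The edgeR call was lower in both comparisons (adjusted p = 3.9e-07 and 2.2e-07), with fitted folds that depend on the prior count at such low values. Cyp26b1 (chr6:84571414-84593908, minus strand), the main CYP26 of limb mesenchyme, was at 41.5 and 44.2 CPM at Day 2, 17.9 and 16.5 at Day 7, then 12.9 and 11.8 at Day 10. The days did not overlap, and each step was lower, by a log2 fold change of -1.32 (SE 0.07, adjusted p = 3.6e-07) and then of -0.48 (SE 0.07, adjusted p = 6.0e-04). The counterpart Cyp26c1 had too few UMIs to be tested.

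The binding proteins dipped at Day 7. Crabp1 (chr9:54764748-54773110, plus strand), which holds retinoic acid in the cytoplasm, was at 70.1 and 66.7 CPM at Day 2, 33.7 and 36.5 at Day 7, then 54.1 and 46.8 at Day 10. Crabp2 (chr3:87948666-87953376, plus strand), known to carry retinoic acid to its receptors, was at 120.6 and 109.6 CPM at Day 2, 24.8 and 24.5 at Day 7, then 57.5 and 56.7 at Day 10. Each had its lowest 2 libraries at Day 7 and its highest 2 at Day 2, with no overlap between days. Crabp1 fell by a log2 fold change of -0.96 (SE 0.08, adjusted p = 5.6e-06) and rose again by 0.52 (SE 0.08, adjusted p = 7.0e-04). The rise was 0.29 and did not pass (adjusted p = 0.077) when cells of at least 3000 UMIs were thinned to that number and the others left out. Crabp2 fell by -2.23 (SE 0.06, adjusted p = 1.1e-08) and rose by 1.21 (SE 0.06, adjusted p = 5.0e-06).

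Of the receptors, Rarb moved most, and Rara and Rarg stayed within 0.33 log2 units between any pair of days under TMM scaling. On library totals Rara fell further to Day 7 (-0.62, adjusted p = 2.1e-05), and the differences between Day 2 and Day 10 were larger too. On that scale Rara was at 37.9 and 35.5 CPM at Day 2 and 26.5 and 26.2 at Day 10. Rarg was at 75.9 and 74.8 CPM and then at 58.3 and 56.4. Rarb (chr14:16430839-16819156, minus strand), the receptor gene known to be induced by its own ligand, was at 14.8 and 12.9 CPM at Day 2, 3.24 and 3.81 at Day 7, then 1.37 and 1.32 at Day 10. Every library lay below those of the day before, and the steps were -1.97 (SE 0.10, adjusted p = 3.1e-07) and -1.39 (SE 0.11, adjusted p = 3.7e-05) on the log2 scale. Rara (chr11:98927818-98974942, plus strand), a broadly used receptor, was at 33.7 and 31.1 CPM at Day 2, 24.2 and 27.2 at Day 7, then 28.1 and 27.5 at Day 10. It fell slightly to Day 7 (-0.33, SE 0.07, adjusted p = 0.0019), and the change from Day 7 to Day 10 was 0.12 (SE 0.07, adjusted p = 0.18). Rarg (chr15:102234938-102257517, minus strand), the receptor known from cartilage, was at 67.5 and 65.5 CPM at Day 2, 74.6 and 72.5 at Day 7, then 62.0 and 59.2 at Day 10. Its change to Day 7 was 0.15 (SE 0.05, adjusted p = 0.027) under TMM scaling and -0.14 (adjusted p = 0.03) on library totals, so that its direction depends on the scaling, and its later fall -0.28 (SE 0.05, adjusted p = 0.002). The first of these calls was lost without Day 2 replicate B (0.12, adjusted p = 0.059), Day 7 replicate A (0.14, adjusted p = 0.14) or Day 7 replicate B (0.17, adjusted p = 0.073). The small differences between Day 10 and Day 2, -0.22 for Rara (adjusted p = 0.015) and -0.13 for Rarg (adjusted p = 0.036), were likewise lost without Day 2 replicate A, Day 10 replicate A or Day 10 replicate B (log2 fold changes of -0.15, -0.22 and -0.19 for Rara, with adjusted p = 0.097, 0.059 and 0.097, and of -0.10, -0.16 and -0.08 for Rarg, with adjusted p = 0.085, 0.069 and 0.28), and that of Rarg also without either Day 7 library (-0.12, adjusted p = 0.1, each time).

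**Figure D2:**
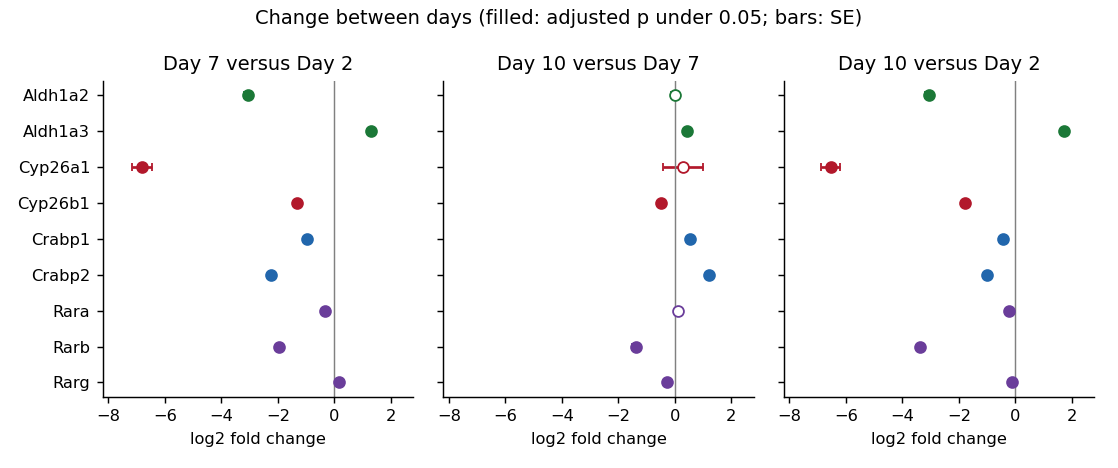
Log2 fold change (x axis) of each gene (y axis) in the 3 pairs of days, green for synthesis, red for breakdown, blue for binding and purple for receptors. Filled points passed an adjusted p of 0.05, open points did not, and bars are SE, mostly narrower than the point. Cyp26a1 has the widest bars, and Aldh1a3 is the gene to the right of 0 in all 3 panels among those filled.

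Of the 7 genes with a promoter window, the 2 that held a retinoic acid response element of the classical spacing were Rarb and Cyp26a1. Windows of 300 bases, 250 before to 50 after each RefSeq start (GRCm38.p6), were given for 7 of the 9 genes, in 11 windows. Aldh1a3 and Crabp2 had no window and were not searched. They were searched on both strands for DR5, a pair of hexamers in the same direction (NGNTCA, with A or G at the leading N and G or T at the other, so that AGGTCA is included) with 5 bases between them. The match of Rarb lay 53 to 37 bases before the start (chr14:16575513-16575529), and that of Cyp26a1 lay 32 to 16 bases before it (chr19:37697776-37697792) on the opposite strand. Of all 32851 windows, 0.097% held such a repeat. The same hexamers spaced by 2 bases (0.268% of windows) or by 1 base (0.222%) were in none of the 11. A match is a string of letters, not evidence of binding in these cells. The 100 bases before each start are shown, gene strand, 5′ to 3′, with the hexamers in capitals, for the 2 windows that hold the repeat.
Rarb, chr14:16575477-16575576, minus strand: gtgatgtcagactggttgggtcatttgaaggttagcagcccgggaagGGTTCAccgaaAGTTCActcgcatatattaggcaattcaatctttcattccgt
Cyp26a1, chr19:37697708-37697807, plus strand: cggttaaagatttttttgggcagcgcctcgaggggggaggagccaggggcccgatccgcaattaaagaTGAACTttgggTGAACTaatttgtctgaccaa

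Of 31 other genes of the pathway, 30 could be tested. From Day 2 to Day 7, 10 were higher, 13 lower and 7 did not pass (median log2 fold change -0.02). From Day 7 to Day 10 the counts were 7, 11 and 12 (median -0.12), and from Day 2 to Day 10 they were 11, 15 and 4 (median -0.08). The background shares given above apply here too. Rbp4, the secreted retinol carrier, rose from 13.7 to 120.2 CPM by Day 7 (log2 fold change 3.14, adjusted p = 2.4e-09) and stood at 120.6 CPM at Day 10. Rdh10, the retinol dehydrogenase of the step before the ALDH1A enzymes, fell from 29.6 to 12.6 CPM (-1.24, adjusted p = 6.9e-07) and was at 9.88 CPM at Day 10. Dhrs3, which turns retinaldehyde back to retinol, rose from 19.9 CPM at Day 2 to 49.5 CPM at Day 10 (1.32, adjusted p = 7.6e-08). Fabp5, a fatty acid carrier that can also bind retinoic acid, fell from 411.8 to 184.4 CPM between Day 7 and Day 10 (-1.16, adjusted p = 3.4e-05). Of 8 receptor coregulators none rose in any comparison, beside 26.3% to 39.0% higher over all genes. All 8 were lower at Day 10 than at Day 2, beside 38.2% over all genes, among them Nrip1 (62.2 to 30.8 CPM, -1.01, adjusted p = 6.5e-07). In that comparison, 6 of 10 retinol and retinaldehyde conversion genes were higher and 1 lower. The counts were 2 and 4 of 6 for retinol uptake, storage and transport, and 2 and 2 of 5 for binding and receptor partners. The 1 gene tested for synthesis and breakdown was higher.

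Of 11 listed genes known to respond to retinoic acid, 8 could be tested. At Day 7 against Day 2, 3 were higher, 4 lower and 1 not called, beside 35.7% higher and 34.6% lower over all genes. The counts were the same at Day 10 against Day 2, beside 39.0% and 38.2%. Between Day 7 and Day 10, 4 rose and none fell, with 4 not called, beside 26.3% and 25.9%. With 8 genes, nothing is read from these counts about the list. Meis2, a proximal limb homeobox gene, fell from 62.1 to 23.8 CPM by Day 7 (log2 fold change -1.38, adjusted p = 4.6e-06), and the nuclear receptor gene Nr2f2 fell from 26.8 to 9.45 CPM (-1.50, adjusted p = 3.3e-07). Rarres1 rose from 2.67 to 12.8 CPM (2.26, adjusted p = 4.8e-08) and again to 28.5 CPM at Day 10 (1.16, adjusted p = 1.5e-05).

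To see which cells held these transcripts, cells were clustered for each day by the steps of the study but with fewer features integrated and a later Seurat version, and the cluster numbers are not those of the study. The 9 genes and the other listed genes of the pathway were left out of the features that joined the replicates. There were 14, 14 and 19 clusters at Day 2, Day 7 and Day 10. A cluster is called after a cell type (with the suffix -like) only where at least 3 of its markers were raised. A raised marker had a mean of at least 5 CPM. It was also more than 1 log2 unit above the average of the day's other clusters, with 5 CPM added to each level. Names were given by judgement after the leading genes were seen. Most clusters led by mitochondrial, histone, nuclear or other genes were left unnamed even where they met that number, such as cluster 3 at Day 2 with 5 of 5 contractile mesenchyme markers. Exceptions are cluster 11 at Day 10, where a nuclear RNA leads, and cluster 11 at Day 7, where cell division genes lead, which were called chondrocyte-like with 7 of 9 and 6 of 9 markers. The interdigital mesenchyme-like, tenocyte-like and joint interzone-like names are uncertain. Cluster 9 at Day 2 had 4 of 6 interdigital markers beside 6 of 8 distal limb mesenchyme ones, with Crabp1 among its 10 leading genes. The raised Hoxa13, Hoxd13 and Msx1 count in both lists. Aldh1a2 was among the 10 leading genes of cluster 6 at Day 2. Cluster 7 at Day 7 had 3 of 6 tenocyte and 3 of 5 perichondrium markers, with Tnmd among its 10 leading genes and Crabp1 there too. Cluster 6 at Day 2 had 4 of 5 joint interzone markers beside 6 of 9 chondrocyte and 3 of 6 interdigital ones, and cluster 4 at Day 7 had 3 of 5, with none among its 10 leading genes. The chondrocyte-like and contractile mesenchyme-like clusters differed in make-up between days. Chondrocyte-like cluster 1 at Day 7 had 6 of 9 chondrocyte markers, against 9 of 9 in cluster 7 at Day 2 and cluster 0 at Day 10. Hypertrophic chondrocyte markers were raised at 2 of 5 in that Day 7 cluster and at 4 of 5 in that Day 10 cluster. Contractile mesenchyme-like cluster 3 at Day 7 had Prg4 among its 10 leading genes. At Day 10 Prg4 led the unnamed cluster 3 and was not among those of contractile mesenchyme-like cluster 1. Levels are CPM of the UMIs summed over a cluster's cells in replicates A and B, without TMM factors, for clusters of at least 50 cells in each. They are described with no test, since clusters are drawn from the same counts. They hold for this clustering. With other resolutions or no integration, the level in a gene's highest cluster moved beyond the spread of its libraries in 35 of 81 recomputations.

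**Figure D3:**
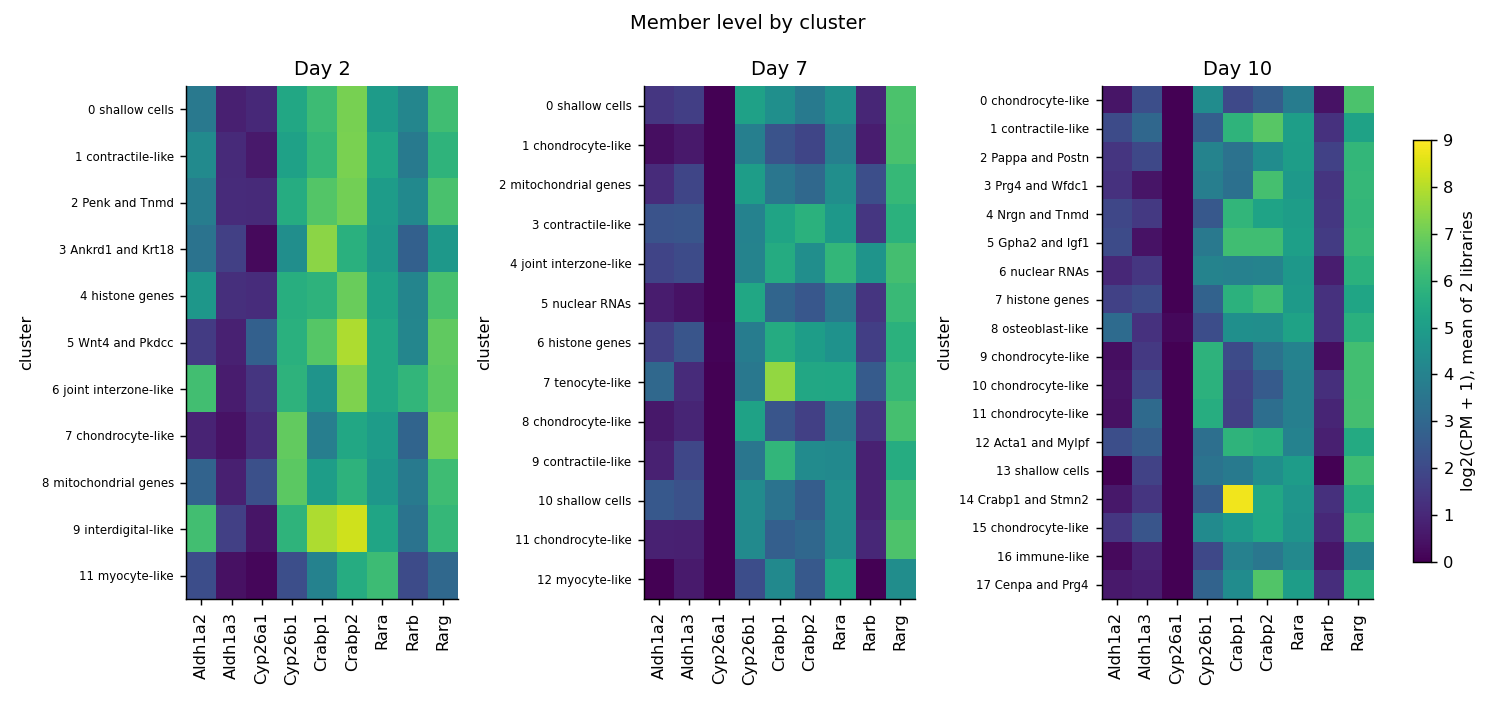
Mean level over 2 libraries, as log2(CPM + 1) by colour from 0 to 9, of each gene (columns) in each cluster of at least 50 cells per library (rows, with number and name or leading genes) at Day 2, Day 7 and Day 10. Colours are to be read down a column. At Day 2 Aldh1a2 is brightest in the interdigital-like and joint interzone-like clusters and Rarb in the latter, and at Day 10 Crabp1 is brightest in cluster 14.

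Aldh1a2 was patchy at Day 2. Its highest levels were in cluster 9, interdigital mesenchyme-like (29.5 and 125 CPM in replicates A and B), and in cluster 6, joint interzone-like (85.2 and 68.0 CPM). These 2 clusters overlapped, and replicate B set the first place of cluster 9. They held 16.1% and 30.4% of the gene's UMIs at Day 2. The next, cluster 4, where histone genes lead, had 26.7 and 25.9 CPM, and the lowest, the chondrocyte-like cluster 7, had 1.14 and 0.615 CPM. Of the cells of cluster 6, 13.3% had an Aldh1a2 UMI (median 11658 and 14211 UMIs per cell), against 1.17% in cluster 7 (17344 and 21192). At Day 7 the highest level was 9.97 and 4.65 CPM in the tenocyte-like cluster 7, and at Day 10 it was 4.93 and 10.6 CPM in the osteoblast-like cluster 8. Aldh1a3 was low in every cluster, and many neighbours in its order overlapped. At Day 7 its leading clusters 6 and 3 held 69.4% of its UMIs. At Day 10 its highest mean was 7.64 CPM, in the chondrocyte-like cluster 11, whose cells were shallow (median 4791 and 4052.5 UMIs). Its clusters with the most UMIs that day were cluster 1, contractile mesenchyme-like (5.86 and 8.06 CPM, from 330 and 387 UMIs), and the chondrocyte-like cluster 0 (3.83 and 3.04 CPM).

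The 2 degrading enzymes had different highest clusters at Day 2. Cyp26a1 at Day 2 was highest in cluster 5, led by Wnt4 and Pkdcc, at 6.12 and 5.30 CPM, and that cluster held 43.1% of its UMIs with 10.6% of all UMIs. Its next level, in the shallow cluster 8, rested on 9 and 8 UMIs. Cyp26b1 was highest in the chondrocyte-like cluster 7 at Day 2 (110.5 and 115.8 CPM, a UMI in 71.8% of cells) and lowest in the myocyte-like cluster 11 (4.91 and 2.13 CPM, a UMI in 9.72% of cells at median depths of 27546 and 33753 UMIs). At Day 7 its leading 4 clusters overlapped, at 26.1 to 45.2 CPM, and most of those cells were shallow. At Day 10 the chondrocyte-like clusters 9 and 10 had 48.2 to 62.5 CPM and cluster 11, where a nuclear RNA leads, had 47.7 and 47.9 CPM, all above the 20.5 and 19.4 CPM of the deeper chondrocyte-like cluster 0, while the osteoblast-like cluster 8 had 4.41 and 2.39 CPM.

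Crabp1 and Crabp2 shared their highest cluster at Day 2 and had different highest clusters later. In this interdigital mesenchyme-like cluster Crabp1 was at 234.8 and 236.7 CPM and Crabp2 at 320.3 and 326.2 CPM, each above every other ranked cluster in both libraries. The second level of Crabp1 was in cluster 3, led by Ankrd1 and Krt18 (163.6 and 177.4 CPM), and that of Crabp2 in cluster 5 (257.4 and 220.7 CPM). Both were lowest in the chondrocyte-like cluster 7, Crabp1 at 13.7 and 13.2 CPM and Crabp2 at 47.0 and 35.5 CPM. At Day 7 Crabp1 was at 189.3 and 179.9 CPM in the tenocyte-like cluster 7, for which it is a leading gene and which held 34.1% of its UMIs, and Crabp2 was highest in the contractile mesenchyme-like cluster 3 (53.9 and 52.5 CPM, 55.4% of its UMIs). At Day 10 Crabp1 was the leading gene of cluster 14 (583 and 318 CPM), whose other leading genes include Stmn2, Dlk1, Wnt10a and Cd34. This cluster had 139 cells in replicate A and 320 in replicate B and held 29.4% of the gene's UMIs with 3.49% of all UMIs. The next cluster was at 75.0 and 74.2 CPM. Crabp2 was highest in the contractile mesenchyme-like cluster 1 (98.1 and 103.0 CPM), and was at 4.88 and 5.70 CPM in the chondrocyte-like cluster 0.

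The 3 receptors had different maps. Rarb at Day 2 was at 62.5 and 57.4 CPM in the joint interzone-like cluster 6, and the next cluster was at 20.8 and 16.1 CPM. At Day 7 it was at 22.2 and 25.8 CPM in the joint interzone-like cluster 4, which held 54.4% of its UMIs, and the next cluster was at 3.94 and 5.93 CPM. At Day 10 no cluster was above 2.74 CPM in either library. Rarg was highest in chondrocyte-like cells at Day 2 (cluster 7, 138.7 and 135.8 CPM, a UMI in 89.8% of cells) and at Day 10 (cluster 0, 87.8 and 85.3 CPM, 92.5% of cells), and its leading clusters overlapped at Day 7. These 2 shares are at unlike depth, with medians of 17344 and 21192 UMIs per cell and then 36856 and 33628. The lowest levels of Rarg were in the myocyte-like cluster 11 at Day 2 (9.71 and 4.56 CPM) and the immune-like cluster 16 at Day 10 (17.2 and 13.3 CPM). Rara was the most even of the receptors at Day 10. At Day 2 it was highest in that same myocyte-like cluster (73.5 and 69.0 CPM), at Day 7 in the joint interzone-like cluster 4 (59.9 and 63.1 CPM), and at Day 10 most clusters overlapped, from 35.1 and 35.2 CPM in the osteoblast-like cluster down to 12.8 and 12.7 CPM in the chondrocyte-like cluster 0.

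Levels were then set side by side within kinds of cluster found on more than 1 day: chondrocyte-like (clusters 7, 1 and 0), contractile mesenchyme-like (clusters 1, 3 and 1) and joint interzone-like (clusters 6 and 4, at Day 2 and Day 7). For each day 1 cluster stands for a kind, which leaves out chondrocyte-like clusters 8 and 11 at Day 7 and 9, 10, 11, 15 and 18 at Day 10, and contractile mesenchyme-like cluster 9 at Day 7. Clusters were made separately for each day, so a kind is matched by markers and not by lineage. Aldh1a2, Cyp26a1, Cyp26b1, Crabp2 and Rarb were lower at Day 7 than at Day 2 in both libraries of all 3 kinds. For Aldh1a2 the log2 difference of mean CPM was -4.86 in the joint interzone-like, -1.68 in the chondrocyte-like and -2.23 in the contractile mesenchyme-like clusters, and for Rarb it was -1.32, -3.35 and -2.84. Cyp26b1 in chondrocyte-like clusters was at 113.1 CPM on average at Day 2 and at 13.9 CPM at Day 7. Aldh1a3 was higher at Day 7 in all 3 kinds. Crabp1 and Rara differed in sign between kinds. Crabp1 was at 24.8 and 23.8 CPM at Day 2 and 52.6 and 38.4 CPM at Day 7 in joint interzone-like clusters, and at 13.7 and 13.2 CPM and then 3.30 and 4.56 CPM in chondrocyte-like clusters. Rarg was lower at Day 7 in the joint interzone-like and chondrocyte-like clusters, with log2 differences of -0.44 and -0.71, on the scale without TMM factors, where whole libraries also went from 75.9 and 74.8 to 69.9 and 67.2 CPM. Over all clusters of a kind, an alternative chosen after seeing the data, the directions from Day 2 to Day 7 were the same. Only the Day 7 levels of the chondrocyte-like and contractile mesenchyme-like kinds could move there. The joint interzone-like kind, and every kind at Day 2, had 1 cluster only. From Day 7 to Day 10, chondrocyte-like Crabp1 was -0.39 with 1 cluster a day and 0.47 over all of them (3.46 and 4.51 CPM, then 5.41 and 5.66 CPM), so that its direction depends on the clusters taken. Of these, cluster 15 at Day 10 also had 2 of 5 contractile mesenchyme and 2 of 6 immune markers raised, and its part in the difference was not tested. Chondrocyte-like cluster 1 held 18.5% and 19.3% of the cells at Day 7, and cluster 7 held 11.7% and 5.19% at Day 2.

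**Figure D4:**
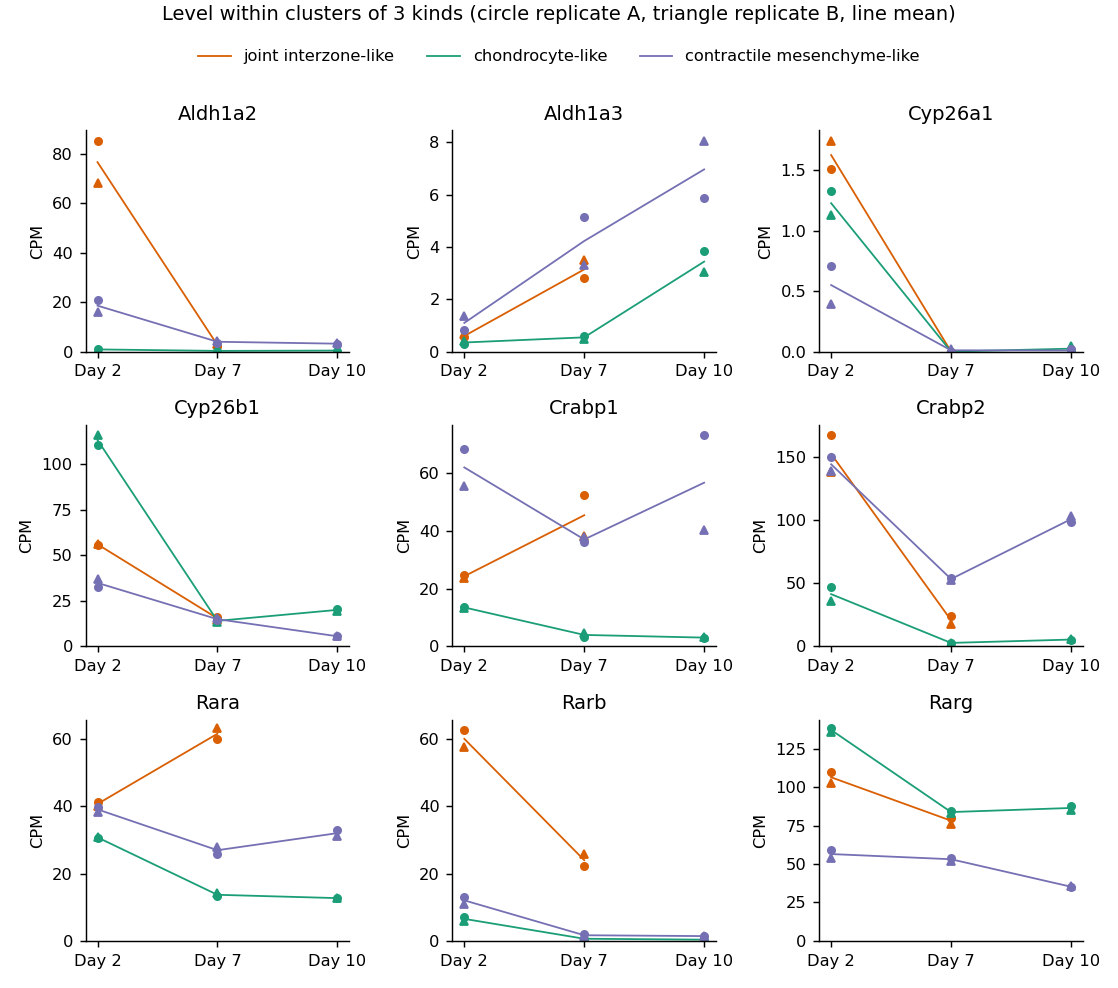
Level in CPM (y axis, from 0) of each gene in joint interzone-like, chondrocyte-like and contractile mesenchyme-like clusters by day (x axis), with circles for replicate A, triangles for replicate B and lines through the means. Rarb and Aldh1a2 are highest in the joint interzone-like cluster at Day 2, and for Crabp1 and Rara the joint interzone-like line goes up while the other 2 go down from Day 2 to Day 7.

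Across cells, some of these transcripts were concentrated and others spread. Only cells of at least 10000 UMIs were used here, each thinned to that number. At Day 2 they were 7780 of 9448 and 5438 of 16486 cells (replicates A and B). At Day 7 they were 6236 of 13485 and 6006 of 12346, and at Day 10 they were 7113 of 10385 and 6462 of 9949. Rara at Day 2 had a UMI in 31.0% and 29.9% of these cells. The same mean would give 32.1% and 30.8% if all of them had 1 level. Aldh1a2 had a UMI in 6.0% and 5.48% of cells, where an even spread would give 20.3% and 22.3%. The 5% of cells with the most Aldh1a2 held 95.6% and 98.1% of its UMIs. That follows from the few cells with a UMI and is no separate measure of spread. Crabp1 was also concentrated, in 26.0% and 25.5% of cells against 52.1% and 51.2% for an even spread, with up to 65 UMIs in a thinned cell.

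**Figure D5:**
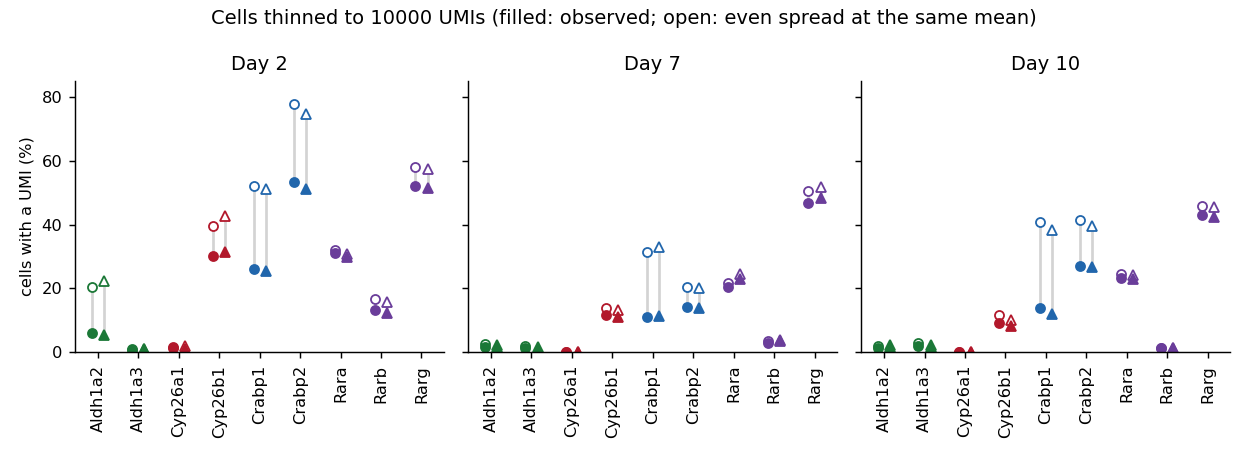
Share of cells with a UMI of each gene (y axis, percent, from 0) by day, with circles for replicate A and triangles for replicate B. Only cells of at least 10000 UMIs are included, each thinned to that number. Filled points are observed shares and open points the share that the same mean would give with an even spread. The grey gap between them is widest for Crabp1, Crabp2 and, at Day 2, Aldh1a2, and narrow for Rara, Rarb and Rarg. A narrow gap at a low level does not show an even spread. At Day 2 the variance over the mean of UMIs per cell was 1.69 and 1.72 for Rarb, against 1.09 and 1.08 for Rara.

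Shares of cells were compared at equal depth. Thinned to 3000 UMIs, with 8802 to 9653 cells per library, Aldh1a2 had a UMI in 3.08% (exact binomial 95% interval 2.73 to 3.46) and 2.98% (2.65 to 3.34) of Day 2 cells and in 0.429% to 0.711% of cells in the 4 later libraries. Crabp2 was in 29.0% and 26.4% at Day 2, 4.49% and 4.49% at Day 7, then 9.74% and 9.75% at Day 10. Cyp26a1 was in 0.489% and 0.414% at Day 2 and in 0 cells of 3 later libraries, which allows shares of cells with a UMI at this depth of up to 0.0395%, 0.0391% and 0.0386% and sets no limit on cells that express it. Without thinning, those libraries had 2, 1 and 2 cells with a UMI. Rarg was in 21.8% and 19.4% of cells at Day 2 and 19.2% and 18.1% at Day 7, lower at Day 7 where its TMM-scaled level was higher. Unthinned, replicate B of Day 2 had lower shares than replicate A, such as 39.2% against 61.7% for Crabp2. Intervals cover counting error only, and 2 libraries against 2 allow no permutation p below 0.33, so that shares were not tested.

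Within cells at Day 2, the number that held Aldh1a2 with Rarb, Crabp2 or Rara was above the product of the separate shares in both libraries. The number with Cyp26b1, Crabp1 or Rarg was below it. In replicates A and B of Day 2, at 3000 UMIs per cell, 37 and 46 cells held Aldh1a2 and Rarb, 2.66 and 3.76 times the product of the shares, and 1.79 and 2.81 times that product when it was taken within each cluster. Aldh1a2 and Crabp2 were together in 131 and 129 cells, 1.67 and 1.69 times the product. Aldh1a2 and Cyp26b1, source and sink of the same molecule, were together in 14 and 21 cells, 0.403 and 0.589 times the product (0.429 and 0.592 within clusters). At 10000 UMIs these ratios were closer to 1, at 0.656 and 0.826 (0.717 and 0.894 within clusters). At 3000 UMIs, Aldh1a2 with Crabp1 was at 0.696 and 0.611 times the product (0.74 and 0.59 within clusters). With Rarg it was at 0.814 and 0.841 times, and with Rara at 1.08 and 1.39 times. Cyp26b1 and Crabp1 were under the product in all 6 libraries, from 0.356 to 0.778, and Crabp1 and Crabp2 were above it in all 6, from 1.34 to 2.61, though within clusters the latter ratio ran from 0.973 to 1.55. Cyp26b1 and Rarg were above it in all 6, from 1.12 to 1.46. These ratios are descriptions of cells that share a library and a culture.

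Over 85 sums per cluster and library, the genes most like each member were found by Pearson r of log2(CPM + 1) among genes with a mean of at least 5 CPM. The sums share libraries, days and depth, and r describes likeness of pattern only. Crabp2 was closest to the tendon factor Scx (r = 0.93), Evl and Nipsnap1 (0.89 each). Rarb was closest to Pthlh (0.90), the signal known for keeping growth cartilage from maturing, and to Sfrp2 and Vezf1 (0.88 each). Rarg was closest to the cartilage factor Sox9 (0.84), to Foxc1 (0.84) and to Ctdspl (0.80). Cyp26b1 was closest to Pitpnc1 (0.85) and the glypicans Gpc6 (0.82) and Gpc3 (0.81), Rara to Ddah2, Marcks (0.82 each) and Gas1 (0.81), Crabp1 to Marcks (0.81), Ptn (0.77) and Csrp2 (0.75), and Aldh1a2 to Fam181b, the distal Hox gene Hoxd12 (0.76 each) and Zcchc18 (0.75). Among the 9 genes themselves, Aldh1a2 and Rarb had the highest r (0.76), followed by Crabp1 and Crabp2 (0.73), and Rara and Rarg had -0.23.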

How the data were processed

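Single-cell libraries were made by the authors with the 10x Genomics 3′ v3.1 kit and processed, per the labels, with Cell Ranger 6.1.2 and STAR against GRCm38 (mm10), and analysed in Seurat 4.1.0. The deposited values are UMI counts per gene and barcode. Cells were kept by the study's limits (minimum 800 or 1000 UMIs, 200 to 7500 genes, at most 25% to 40% mitochondrial and 35% or 40% ribosomal counts, set per library). No doublets were called or removed. Counts were summed per library and tested with edgeR 4.0.16 (filterByExpr, TMM, quasi-likelihood F test on all 6 libraries, Benjamini-Hochberg over all genes tested, 0.05). SEs are the fold change divided by the root of F. The 2 cultures per day may share pooled embryos, so p-values measure the spread between these cultures. Clusters were made with Seurat 5.3.0 and sctransform 0.4.2 (SCTransform, cell cycle difference regressed, anchor integration over 3000 features, 35 dimensions, resolution 0.5, or 0.7 at Day 10). The study integrated over all genes instead, at the same dimensions and resolutions. Alternatives were DESeq2 1.42.0, RLE factors, no low-count filter, other cell sets, thinning, a replicate block, leaving out each library and, chosen after seeing the data, library totals without TMM factors and all clusters of a kind. Promoter windows came from RefSeq (GRCm38.p6) and gene positions from GENCODE vM21. Named with values were the 9 members, other listed genes called with an absolute log2 fold change of at least 1 and a mean of at least 10 CPM on a day, and the 3 genes most like each member with a mean of at least 5 CPM. A listed gene that met this rule is not reported here. The members and gene lists were chosen with earlier results of these data known. Replicate letters did not pair the libraries.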

Additional observations from a re-analysis of the deposited data

Results flagged for a closer look

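Several members moved opposite ways in different kinds of cluster, with both libraries of the later day above both of the earlier day in one kind and below in another; these differences were not tested. Each kind is 1 cluster a day. Values are log2 differences of mean CPM between clusters made separately for each day. From Day 2 to Day 7, Crabp1 differed by 0.90 in the joint interzone-like cluster, by -1.78 in the chondrocyte-like and by -0.74 in the contractile mesenchyme-like cluster. Rara differed over the same days by 0.60, -1.17 and -0.54. From Day 7 to Day 10, Cyp26b1 differed by 0.52 in chondrocyte-like and by -1.44 in contractile mesenchyme-like clusters, and Crabp1 by -0.39 and 0.61, the latter with 73.2 and 40.3 CPM in replicates A and B of Day 10. The remaining pairs were Aldh1a2 with 0.57 at 0.274 and 0.407 CPM in chondrocyte-like and -0.31 in contractile mesenchyme-like clusters, Rara with -0.11 and 0.25, and Rarg with 0.05 and -0.59. The opposite directions of Crabp1, Rara and Rarg from Day 7 to Day 10 rest on the single chondrocyte-like clusters. Over all chondrocyte-like clusters Crabp1 was higher at Day 10 in both libraries (0.47), and the libraries overlapped for Rara (0.03) and Rarg (-0.02). The opposite directions of Cyp26b1 and Aldh1a2 from Day 7 to Day 10 were present over all clusters of each kind too. For Crabp1 and Rara from Day 2 to Day 7, the chondrocyte-like and contractile mesenchyme-like kinds kept their direction. The joint interzone-like kind had only 1 cluster a day, so its values (0.90 and 0.60) could not change.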

How the results depend on the processing

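Of 378 fold changes of members recomputed under other settings, 358 kept their side of the threshold, 19 kept the direction only and 1 reversed. The reversal was that of Rarg at Day 7 against Day 2 on library totals without TMM factors (-0.14). A change of sign counted as a reversal only where at least 1 of the 2 fits passed the threshold. The 358 can therefore include changes of sign between fits that did not pass. Over all clusters of a kind, 3 of 32 differences between clusters reversed, those of chondrocyte-like Crabp1 (0.47), Rara (0.03) and Rarg (-0.02) at Day 10 against Day 7. These 2 alternatives were chosen after seeing the data. Those 19 were steps of Rarg, Rara, Aldh1a3 (Day 10 against Day 7) and Crabp1 (Day 10 against Day 7). Thinning to 3000 UMIs, with cells under that number left out, gave 5819 genes called at Day 10 against Day 7, against 9913. Without Day 2 replicate A to without Day 10 replicate B, calls ranged from 11500 to 13226 (Day 7 against Day 2), 6788 to 10558 (Day 10 against Day 7) and 13543 to 14514 (Day 10 against Day 2); a lone library was assumed to vary like the other groups. With a replicate block the counts were 13135, 9607 and 14524 and no member's call changed; deviations of libraries with the same letter correlated at -0.01, -0.08 and 0.01, so that the letters were not taken as pairs. DESeq2 called 12280, 8943 and 13667 genes. The level in the highest cluster of each gene and day moved by more than 1 SD in 35 of 81 recomputations with other resolutions or no integration. At Day 2, doubling the resolution took Aldh1a2 from 77.0 to 163 CPM and Crabp1 from 235.8 to 404 CPM. Shares of cells moved with depth in 151 of 162 recomputations, and 83 of 88 pair ratios stayed within their counting interval at 10000 UMIs. Cyp26a1 after Day 2 rests on 1 to 4 UMIs per library. Those libraries held 200469319 to 260245417 UMIs, against 205573890 and 178022112 at Day 2. Depth limits the shallow cells, which were most frequent in Day 2 replicate B and also frequent in both Day 7 libraries.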
